A study of Mus musculus with 3 samples.

Results

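Retinoic acid signalling was examined through 9 genes, Rara, Rarb, Rarg, Rxra, Rxrb, Aldh1a1, Rdh10, Dhrs3 and Cyp26b1, which encode retinoid receptors and enzymes that make, spare or degrade retinoic acid. They were taken by name from a table of 23393 named genes, and all 9 had a row. RNA came from the bone marrow of C57BL/6 mice, from GFP+ HSCs, GFP- HSCs and MPPs, each a single library. All were LSK cells: they lacked lineage markers and carried Sca-1 and c-Kit, as blood stem cells and early progenitors do. The hematopoietic stem cells (HSCs) lacked CD48 and carried CD150, and a fraction positive for a Map17 reporter (Map17-GFP+) was separated from a negative one (Map17-GFP-). The multipotent progenitors (MPPs), which lie downstream of HSCs, were CD48-positive, CD150-negative and Map17-GFP-. The age and number of the animals, and whether animals were pooled, are not given in the labels.

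Retinoic acid is the active form of vitamin A. Cells oxidise retinol to retinal and retinal to retinoic acid, which enters the nucleus and binds a retinoic acid receptor (RAR) paired with a retinoid X receptor (RXR) on DNA. Without ligand the pair holds co-repressors, and with ligand it recruits co-activators; among the genes it switches on are Rarb itself and enzymes that remove retinoids, which gives the pathway a feedback. In the marrow, retinoic acid drives the maturation of granulocyte progenitors, and vitamin A signalling has been linked to the dormancy of mouse HSCs.

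A DNA element of this feedback is a direct repeat of a 6-base unit with 5 bases between the copies (DR5). A search of RefSeq promoter windows (GRCm38.p6, 250 bases before to 50 after an annotated start) covered both strands and took as the unit AGGTCA, its variant GGGTCA, a second variant AGTTCA, or the variant GGTTCA with both changes, in any pair. It found the DR5 in 32 of 32851 windows, or 0.0974%. Windows were present for 8 of the 9 genes, 17 in number, and 1 of them held a DR5, that of Rarb. Among the other genes of the hydroxylase family of Cyp26b1, the window of Cyp26a1 held one as well. Repeats with a spacer of 1 or 2 bases, which the same receptors can bind, were found in 0.222% and 0.268% of all windows and in 0 of the 17. The matching stretches are shown because Rarb and Cyp26a1, which share this element, had very different levels in HSCs (below); the repeated units are in capitals, with 6 bases on either side, both read on the minus strand. The Rarb repeat runs from 53 to 37 bases before an annotated start (chr14:16575507-16575535 as shown). That start lies inside the span of Rarb, a minus-strand gene that reaches 17082331, and no window covered that far end. The Cyp26a1 repeat runs from 32 to 16 bases before its annotated start, on the strand opposite to the gene (chr19:37697770-37697798 as shown).
Rarb: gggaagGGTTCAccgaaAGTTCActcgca
Cyp26a1: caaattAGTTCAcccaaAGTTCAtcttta
A match describes these letters and not binding, and a window without one says nothing of sites elsewhere in the gene.

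The measured quantity was the authors' normalized count per gene, called the level, which is scaled between libraries, so the sequencing depth is unknown. The levels summed to 25311805 in GFP+ HSCs, 25375047 in GFP- HSCs and 26689660 in MPPs. Slamf1, which encodes CD150, stood at 2219, 2144 and 17 in the same order of populations, and Cd48 at 64, 168 and 7744, both the way of the gates. Pdzk1ip1, the Map17 gene, stood at 5659, 3673 and 290, only 1.54-fold higher in GFP+ than in GFP- HSCs. The comparisons covered the 11951 genes whose level averaged 50 or more, and all 9 retinoid genes were among them. With 1 library per population there was no spread between replicates and no test, so differences are described by their size and set beside all genes. In bulk samples fewer cells that express a gene and less RNA per cell cannot be told apart.

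**Figure D1:**
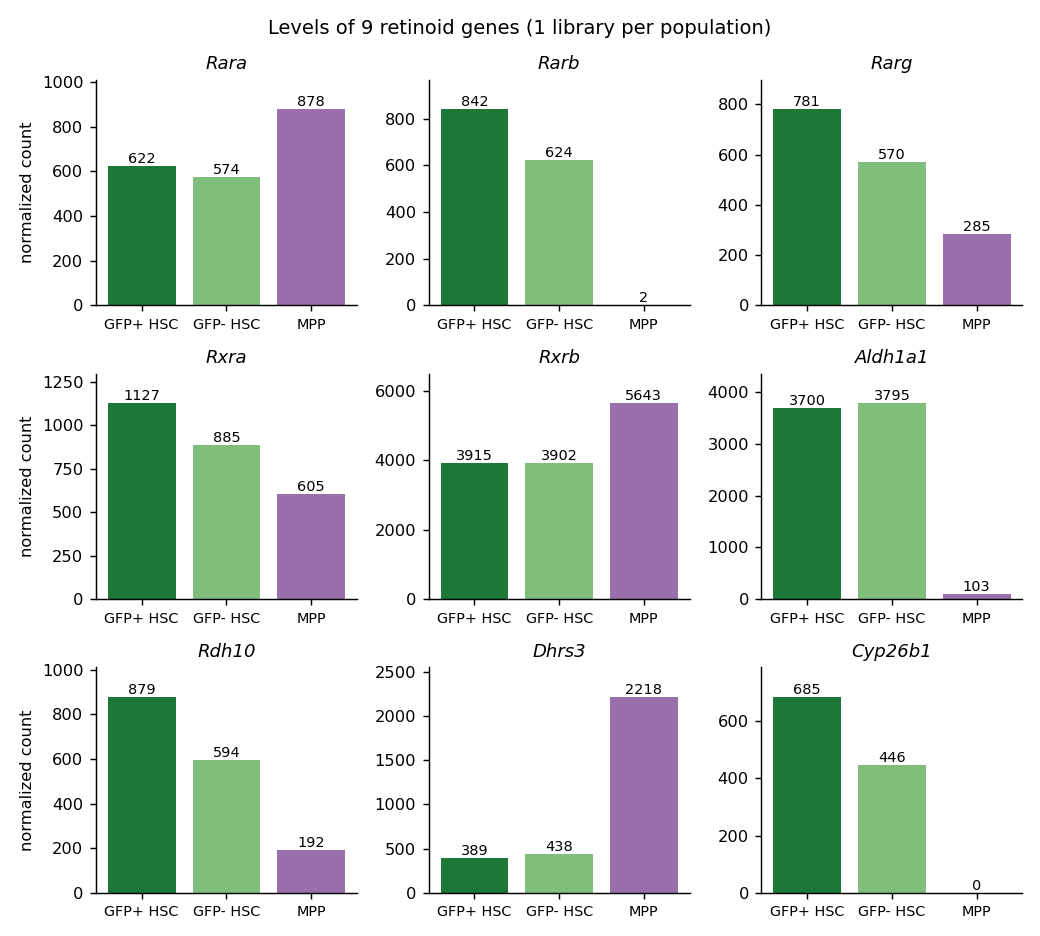
Levels (normalized counts, linear axes from 0) of the 9 retinoid genes in GFP+ HSCs, GFP- HSCs and MPPs, 1 bar per library. Rarb, Cyp26b1 and Aldh1a1 were high in both HSC fractions and at 2, 0 and 103 in MPPs, and Dhrs3 was highest in MPPs at 2218.

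The receptors that bind retinoic acid differed in which of them was present. Rarb, which encodes RAR beta (chromosome 14, 16430839 to 17082331, GRCm38), stood at 842 in GFP+ HSCs, 624 in GFP- HSCs and 2 in MPPs. On a log2 scale with a pseudocount of 5 it was 6.92 higher in GFP+ HSCs than in MPPs, and 0.0837% of all genes had a ratio at least as high; because the MPP level was nearly 0, this value depends on the pseudocount and ranged from 5.29 to 8.13 over the settings tried. Rarg, which encodes RAR gamma, the form known from HSCs (chromosome 15, 102234938 to 102257522), stood at 781, 570 and 285 in GFP+ HSCs, GFP- HSCs and MPPs, 2.74-fold above MPPs in GFP+ HSCs. Its log2 ratio for GFP- HSCs against MPPs was 0.99, just under the 2-fold rule, and 1.06 when the libraries were rescaled to the same total or upper quartile. Rara, which encodes RAR alpha, the receptor of granulocyte maturation (chromosome 11, 98927800 to 98974942), went the other way, with 622 in GFP+ HSCs, 574 in GFP- HSCs and 878 in MPPs, without reaching 2-fold. The HSC libraries therefore held all 3 RAR transcripts. The MPP library held Rara, less Rarg than either HSC library and almost no Rarb.

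The partners of the RARs were less far apart. Rxra, which encodes RXR alpha (chromosome 2, 27676445 to 27763319), stood at 1127 in GFP+ HSCs, 885 in GFP- HSCs and 605 in MPPs, 1.86-fold above MPPs in GFP+ HSCs. Rxrb, which encodes the widely expressed RXR beta (chromosome 17, 34031812 to 34038403), stood at 3915, 3902 and 5643, 1.44-fold below MPPs in GFP+ HSCs. Rxrg, which encodes RXR gamma, a form of muscle and brain, was not among the 9 genes and stood at 1, 0 and 0.

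**Figure D2:**
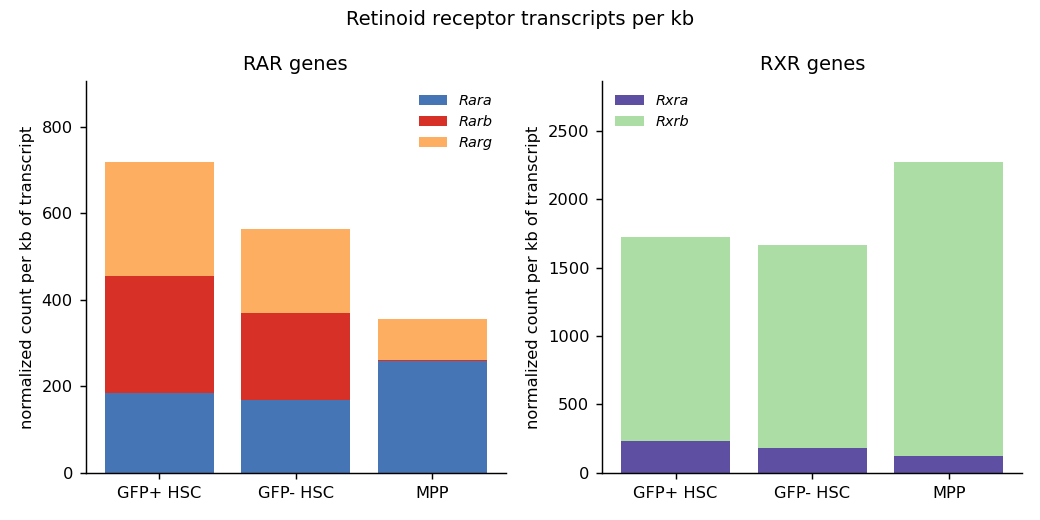
Levels per kb of the longest annotated transcript for the RAR genes (left) and the RXR genes (right), stacked by gene, in GFP+ HSCs, GFP- HSCs and MPPs, 1 library each. Rarb made up 37.7% and 35.6% of the summed RAR level per kb in GFP+ and GFP- HSCs and 0.18% in MPPs, and Rxrb made up most of the RXR bars in all 3.

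Levels of different genes can be set side by side only per kb, and their order then depends on the transcript length used. Per kb of the longest annotated transcript, Rara, Rarb and Rarg stood at 184, 271 and 264 in GFP+ HSCs and at 170, 201 and 193 in GFP- HSCs. In MPPs they stood at 259, 0.644 and 96.5 per kb, and Rara held 72.8% of the sum, against 25.6% in GFP+ HSCs and 30.1% in GFP- HSCs. The summed RAR level per kb was 719 in GFP+ HSCs, 563 in GFP- HSCs and 357 in MPPs, and the summed RXR level per kb was 1720, 1666 and 2271. The RXR sum was therefore 2.39-fold the RAR sum in GFP+ HSCs, 2.96-fold in GFP- HSCs and 6.37-fold in MPPs. With the longest coding length in place of transcript length, these ratios were 2.0, 2.41 and 4.77. With the median length of a gene's annotated transcripts they were 1.73, 2.24 and 6.50, but the order of the RARs changed. Rara, Rarb and Rarg then stood at 252, 800.4 and 1846 per kb in GFP+ HSCs, at 232, 593 and 1348 in GFP- HSCs, and at 356, 1.90 and 674 in MPPs. Under that length Rarg held the largest RAR share in every library, 63.7% in GFP+ HSCs, 62.0% in GFP- HSCs and 65.3% in MPPs. The Rara share was 8.69%, 10.7% and 34.5%, and the Rarb share 27.6%, 27.3% and 0.184%. Under all 3 lengths the Rarb share was far lower in MPPs than in either HSC library and the Rara share was highest in MPPs, whereas the order of the RARs within a library depended on the length.

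The level of Rarb was set beside that of its neighbour Top2b, which lies on the other strand, because the library chemistry does not mark strand. Their last exons overlap in GENCODE M21, whereas in RefSeq the genes lie 51 bases apart. Of 50-base words of the longest Rarb transcript, 54.1% also occur in GENCODE transcripts of Top2b. Top2b, a DNA topoisomerase gene, stood at 8114 in GFP+ HSCs, 7719 in GFP- HSCs and 8861 in MPPs. The MPP library thus had the highest Top2b level of the 3 and a Rarb level of 2, so the Rarb row did not follow that of Top2b. How the authors counted reads in the overlap is not given in the labels, and the part of the overlap in the Rarb levels of the HSC libraries was not tested.

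Of the enzymes, Aldh1a1 and Rdh10 had higher levels in HSCs and Dhrs3 in MPPs. Aldh1a1, which encodes a retinaldehyde dehydrogenase for the last, irreversible step to retinoic acid (chromosome 19, 20492583 to 20643463), stood at 3700 in GFP+ HSCs, 3795 in GFP- HSCs and 103 in MPPs. Relative to MPPs it was 35.9-fold higher in GFP+ HSCs and 36.8-fold higher in GFP- HSCs, and 0.452% and 0.31% of all genes had ratios at least as high. Per kb of the longest transcript it stood at 1569 in GFP+ HSCs, 1609 in GFP- HSCs and 43.7 in MPPs. The adjacent Aldh1a7, a near copy that shares 6.54% of the 50-base words of Aldh1a1, stood at 21, 59 and 24. The other retinal dehydrogenase genes stayed low: Aldh1a2 stood at 6, 0 and 0 in GFP+ HSCs, GFP- HSCs and MPPs, Aldh1a3 at 1, 11 and 1, and Aldh8a1 at 1, 0 and 0.

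Rdh10, which encodes the retinol dehydrogenase of the step to retinal (chromosome 1, 16105882 to 16132550), stood at 879 in GFP+ HSCs, 594 in GFP- HSCs and 192 in MPPs. Relative to MPPs it was 4.58-fold higher in GFP+ HSCs and 3.09-fold higher in GFP- HSCs. Dhrs3, which encodes the reductase that turns retinal back into retinol and forms a complex with RDH10 (chromosome 4, 144892534 to 144928209), had the opposite pattern, at 389 in GFP+ HSCs, 438 in GFP- HSCs and 2218 in MPPs. Relative to MPPs it was 5.70-fold lower in GFP+ HSCs and 5.06-fold lower in GFP- HSCs, and 1.80% and 1.61% of all genes had ratios at least as low. Levels of the oxidising and the reducing enzyme were thus high in different populations. In the RefSeq annotation Dhrs3 lies within the span of Vps13d, which stood at 728, 689 and 367 and so did not follow it.

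Cyp26b1, which encodes a cytochrome P450 that hydroxylates retinoic acid for removal (chromosome 6, 84571414 to 84593908), stood at 685 in GFP+ HSCs and 446 in GFP- HSCs and was listed at 0 in MPPs. No fold is given against a listed 0; on the log2 scale with a pseudocount of 5 the difference was 7.11 for GFP+ HSCs and 6.50 for GFP- HSCs. The related genes did not accompany it. Cyp26a1, whose start carries the DR5 shown above, stood at 0 in GFP+ HSCs, 9 in GFP- HSCs and 0 in MPPs, and Cyp26c1 was listed at 0 in all 3.

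**Figure D3:**
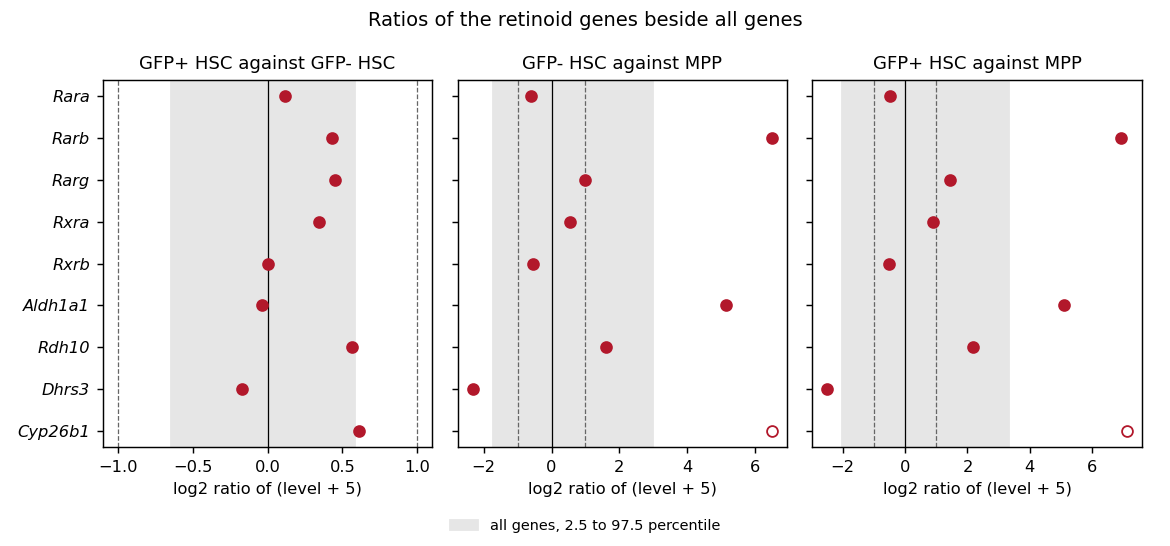
Log2 ratio of (level + 5) for each of the 9 genes in the 3 comparisons, on separate x axes, with dashed lines at 2-fold and grey bands for the central 95% of all 11951 genes; open circles mark Cyp26b1 where the MPP level was listed at 0. Rarb, Aldh1a1 and Cyp26b1 lay to the right of the band and Dhrs3 to the left against MPPs, and in GFP+ against GFP- HSCs only Cyp26b1 lay outside the band.

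Counted over the 9 genes, 5 (Rarb, Rarg, Aldh1a1, Rdh10 and Cyp26b1) stood 2-fold or more above MPPs in GFP+ HSCs and 1 (Dhrs3) 2-fold or more below. Of all 11951 genes, 13.7% stood that far above and 8.6% that far below. For GFP- HSCs against MPPs, 4 passed the rule upward and 1 downward, as did 11.6% and 5.53% of all genes. The median log2 ratio of the 9 genes was 1.44 for GFP+ HSCs and 0.99 for GFP- HSCs against MPPs, beside 0.01 and -0.01 for all genes. The comparisons against MPPs share the MPP library, and the genes were chosen with earlier results in view. Rarb and Cyp26b1 passed the filter only through the HSC libraries, in which they were high, so they could count only as higher there.

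GFP+ against GFP- HSCs asked how the reporter divides these genes within the stem cell gate. None of the 9 was 2-fold apart, and of all genes 0.41% passed the rule upward and 0.87% downward. Cyp26b1 was 1.54-fold higher in GFP+ than in GFP- HSCs (685 and 446), and 2.18% of all genes had a ratio at least as high. Rdh10 was 1.48-fold higher (879 and 594; 2.84% of genes), Rarg 1.37-fold (781 and 570; 4.95%), Rarb 1.35-fold (842 and 624; 5.59%) and Rxra 1.27-fold (1127 and 885; 8.46%). Rara (622 and 574), Rxrb (3915 and 3902), Aldh1a1 (3700 and 3795) and Dhrs3 (389 and 438) were within 1.13-fold of each other in GFP+ and GFP- HSCs. The direction of Rxrb changed with the scaling, its log2 ratio of 0.0048 becoming -0.012 at the same upper quartile or with the abundance trend removed. A difference of this size has no replicate to be measured against.

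The rest of the pathway was followed in lists written from general knowledge. Of 19 genes for enzymes between retinol and retinal, 9 passed the abundance filter and 5 were listed at 0 in all 3 libraries. Besides Rdh10 and Dhrs3, only Rdh5, a retinol dehydrogenase known from the eye, was 2-fold apart, at 144 in GFP+ HSCs, 144 in GFP- HSCs and 32 in MPPs. In GFP+ HSCs 2 of the 9 thus stood 2-fold or more above MPPs and 1 below, where 13.7% and 8.6% of all genes did. Rdh5 passed the filter only through the HSC libraries, in which it was high. Of the 9, 6 stood below their MPP levels in GFP+ HSCs by any amount, where 49.3% of all genes stood at or below theirs. Among the 6 were Dhrs4 (1199, 1387 and 1850) and Rdh12 (391, 361 and 481). Adh5, an alcohol dehydrogenase better known for formaldehyde, stood at 3515, 3948 and 4854. The median log2 ratio of those that passed was -0.14 for GFP+ HSCs and -0.23 for GFP- HSCs against MPPs, beside 0.01 and -0.01 for all genes.

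Uptake, storage and binding of vitamin A was represented by few genes, with 5 of 15 past the filter. Fabp5, a fatty acid-binding protein that can carry retinoic acid, was 2.20-fold below MPPs in GFP+ HSCs, at 268 in GFP+ HSCs, 377 in GFP- HSCs and 589 in MPPs. Bco2, a carotenoid-cleaving enzyme, was 3.02-fold above MPPs in GFP+ HSCs, at 190, 215 and 63. Stra6, the retinol uptake receptor, stood at 5, 0 and 0, Lrat, which stores retinol as esters, at 7, 8 and 0, Crabp1 at 1, 0 and 0 and Crabp2 at 2, 0 and 0; the last pair encode the cellular retinoic acid-binding proteins.

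**Figure D4:**
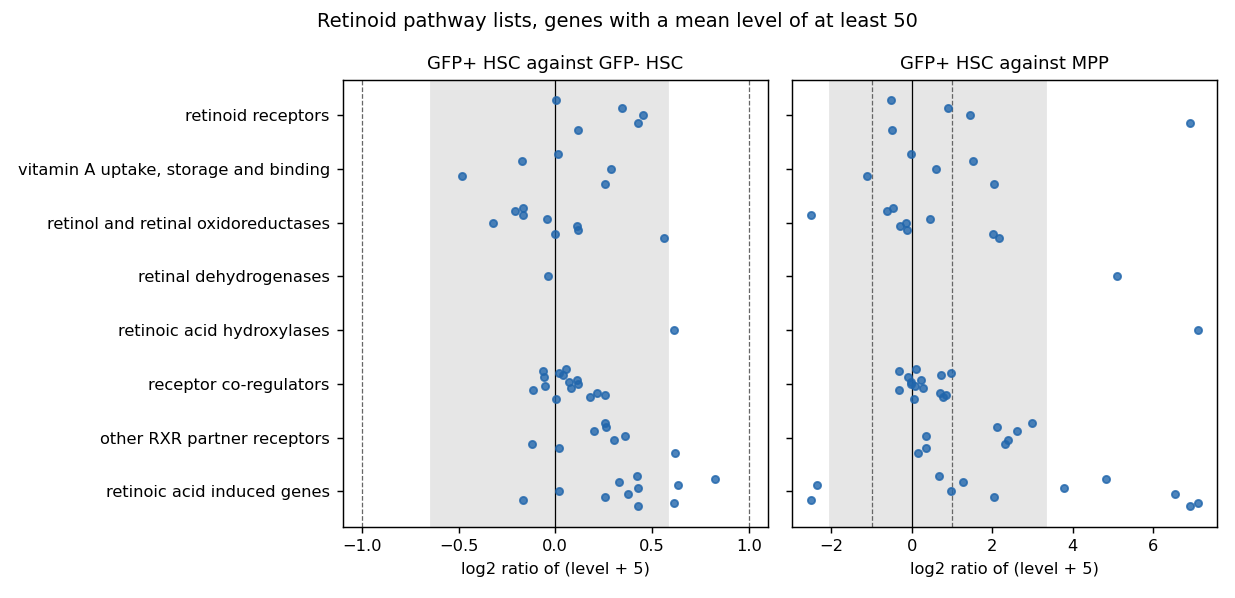
Log2 ratio of (level + 5) of each gene with a mean level of at least 50 in 8 lists of the pathway, for GFP+ against GFP- HSCs (left) and GFP+ HSCs against MPPs (right); each point is 1 gene, dashed lines mark 2-fold and grey bands the central 95% of all genes. Co-regulators lay within 2-fold in both panels, and the widest spread on the right was among genes induced by retinoic acid, from -2.50 for Dhrs3 to 7.11 for Cyp26b1.

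Co-regulators, which carry the signal of the bound receptor, were present in all 3 libraries. All 15 passed the filter and 0 were 2-fold apart in any of the 3 comparisons. Of all genes, 13.7% passed the rule upward and 8.6% downward for GFP+ HSCs against MPPs. For GFP- HSCs against MPPs 11.6% and 5.53% did, and for GFP+ against GFP- HSCs only 0.41% and 0.87%. The co-repressor gene Ncor1 stood at 9041 in GFP+ HSCs, 9025 in GFP- HSCs and 8679 in MPPs. The ligand-dependent co-repressor gene Nrip1 was highest above MPPs in this list, at 8644, 8522 and 4374, 1.98-fold higher in GFP+ HSCs.

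Several other receptors that pair with RXR were higher in HSCs. Of 13 genes, 8 passed the filter, of which 5 stood 2-fold or more above MPPs in GFP+ HSCs and 0 below, where 13.7% and 8.6% of all genes did. Their median log2 ratio was 2.21, beside 0.01 for all genes, and 0.74 when the 5 list members under the filter were included. Vdr, the vitamin D receptor gene, stood at 3066 in GFP+ HSCs, 2485 in GFP- HSCs and 586 in MPPs. Thrb, a thyroid hormone receptor gene, stood at 400, 347 and 61, Nr1h3, which encodes the oxysterol receptor LXR alpha, at 124, 135 and 21, and Nr4a2 and Nr4a1, orphan receptors induced by stimulation, at 2519, 2107 and 315 and at 60214, 50260 and 13943. Of these, Nr1h3 passed the filter only through the HSC libraries, in which it was high. Thra (1080, 840 and 849), Nr1h2 (4125, 4068 and 3246) and Ppard (87, 55 and 78) were within 2-fold in the same order of populations. This list had a median log2 ratio of 0.26 for GFP+ against GFP- HSCs, with 7 of 8 higher, where 51.7% of all genes were higher.

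Genes known to be induced by retinoic acid did not share 1 direction. The list held 22 genes, 3 of them among the 9; 11 passed the filter, and some passed only through the population in which they were high. Of these 11, 7 stood 2-fold or more above MPPs in GFP+ HSCs and 2 as far below, where 13.7% and 8.6% of all genes did. Their median log2 ratio was 2.04, beside 0.01 for all genes, and 0.99 with all 22 genes included. Tgm2, a transglutaminase gene used as a readout of retinoic acid in many cells, stood at 14430 in GFP+ HSCs, 11121 in GFP- HSCs and 152 in MPPs. Cd38, an ectoenzyme gene induced by retinoic acid in human myeloid cells, stood at 1040, 772 and 71, and the homeobox genes Hoxb5 and Hoxb4 at 618, 346 and 17 and at 211, 167 and 85. Cebpe, a granulocyte factor gene that RAR alpha induces in human myeloid cells, was 5.88-fold below MPPs in GFP+ HSCs, at 26, 15 and 153, like Dhrs3. The DR5 genes were apart from each other, with Rarb at 842, 624 and 2 and Cyp26a1 at 0, 9 and 0. In GFP+ against GFP- HSCs, 10 of the 11 were higher in GFP+ HSCs by any amount, where 51.7% of all genes were. The exception was Dhrs3. In that comparison 0 of the 11 were 2-fold apart, where 0.41% of all genes were that far higher and 0.87% lower. Hoxb5 had the highest ratio there, 1.79-fold.

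Markers of other cells moved with some of these differences, and their part in the results was not tested. The summed level of 9 endothelial markers was 11370 in GFP+ HSCs, 9093 in GFP- HSCs and 1870 in MPPs, most of it Tie1 (9696, 7832 and 1665), which HSCs also express. Of the 6 that passed the filter, 5 stood 2-fold or more above MPPs in both HSC fractions, as Rarb and Cyp26b1 did. Of all genes, 13.7% stood that far above in GFP+ HSCs and 11.6% in GFP- HSCs. Some of the 5 passed the filter only through the HSC libraries, in which they were high. Besides Tie1, Kdr stood at 713, 444 and 18, Cldn5 at 411, 347 and 12, Sox18 at 343, 250 and 26 and Flt4 at 91, 72 and 27. Plvap, the sixth, stood at 65, 89 and 103. Of the members under the filter, Cdh5, which defines endothelium, stood at 3, 10 and 10, Sox17 at 0, 4 and 1 and Stab2 at 48, 45 and 8. The sum of 10 stromal markers was 1514, 1296 and 2590, and its members did not share a direction. Pdgfrb, the largest part of the MPP sum, stood at 503, 589 and 2472, Col1a2 at 679, 457 and 28, and Cxcl12 at 29, 187 and 66. Col1a1 stood at 294, 22 and 17, 13.4-fold higher in GFP+ than in GFP- HSCs by levels. On the log2 scale with a pseudocount of 5 its ratio there, 3.469, was the highest of all 11951 genes. The other 6 stood at 10 or less in every library, with Dcn at 0, 3 and 1, Lum at 0, 5 and 0 and Lepr at 0, 10 and 0. The sum of 8 neutrophil markers was 1735 in GFP+ HSCs, 786 in GFP- HSCs and 816 in MPPs and so moved with the genes that were higher in GFP+ than in GFP- HSCs. Of the 8, 7 passed the filter and all 7 were higher in GFP+ HSCs, where 51.7% of all genes were. Of these, 3 were 2-fold or more higher, where 0.41% of all genes were. Chi3l3, at 183, 12 and 94, was 15.25-fold higher by levels, a larger fold than that of Col1a1. Macrophage markers summed to 522, 619 and 2766, dendritic cell markers to 1483, 1488 and 3100, mast cell and basophil markers to 43, 130 and 1265, B cell markers to 903, 769 and 1341, and T and NK cell markers to 736, 773 and 2141. These sums were all highest in MPPs, as was Dhrs3, but not every member followed its sum. Klrb1c of the T and NK list stood at 266, 281 and 39, and Clec9a of the dendritic list at 130, 107 and 38. Bst2 (1299, 1346 and 2004) was the largest part of the dendritic cell sum and Cd79b (870, 749 and 1109) of the B cell sum. Erythroid markers summed to 1000, 1174 and 468, with the 4 haemoglobin genes found at 0 in every library.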

How the data were processed

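The authors deposited 1 table of counts per gene that they had normalized between libraries and rounded, and its values were treated as a score, with unknown depth, because the scaling factors were not given. STAR, DESeq2 and mm10 are named in the submitters' processing notes; roles, versions, annotation and counting are not stated there. Per the labels' protocols, cDNA was made with SMART-seq v4 from sorted cells. Of 23420 rows, 27 bore a date in place of a symbol or no name, 0.212% of the table's sum, and were dropped. A listed 0 need not mean absence.

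Log2 ratios used a pseudocount of 5, which understates differences of low genes; printed folds are ratios of levels. With 1 library per population no p-value was computed. Transcript lengths came from GENCODE M21, for 94.0% of genes past the filter, and gene coordinates from RefSeq (GRCm38). Named genes were the 9 retinoid genes, list members at least 2-fold apart, the 3 genes most alike in pattern to members 4-fold apart, and list examples; Cyp26a1, Cyp26c1, other low members, marker genes and neighbours were added after their values were seen, and a few genes the rule takes are not reported here. Members and lists were chosen with earlier results of these data known. Calculations were tested on simulated data, with Python 3.11.15, numpy 2.4.6, pandas 2.3.3 and statsmodels 0.14.6. Alternatives were other pseudocounts, filters, scalings and a 4-fold threshold, plus other transcript lengths, chosen after seeing the data.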

Additional observations from a re-analysis of the deposited data

How the results depend on the processing

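The direction of the 9 genes against MPPs and their side of the 2-fold rule were the same with a pseudocount of 1 or 20, with the filter at 10, at 200 or absent, with library totals or upper quartiles made equal and with the abundance trend removed, except for Rarg in GFP- HSCs against MPPs, at 1.06 under both rescalings, which also set the median of the 9 genes there to 1.06. Genes at least 2-fold higher and lower in GFP+ than in GFP- HSCs numbered 49 and 104, and 23 and 62 with a pseudocount of 20, 164 and 194 at a minimum mean of 10, 9 and 57 at 200, 356 and 359 with no filter, and 4 and 7 at 4-fold. In GFP- HSCs against MPPs 1384 were higher and 661 lower; 854 were higher at a minimum mean of 200, 2320 were higher and 1172 lower with no filter, and 601 and 240 at 4-fold. In GFP+ HSCs against MPPs 1636 were higher and 1028 lower; 1049 were higher at 200, 2647 and 1576 with no filter, and 702 and 307 at 4-fold. With no filter, where genes at or near 0 enter, medians of log2 ratios for GFP+ HSCs against MPPs were 0.74 for RXR partners (also for GFP- HSCs), 0.99 for induced genes (0.81 for GFP- HSCs), 0.26 for retinal dehydrogenases and 0.00 for hydroxylases (0.00 for GFP+ against GFP- HSCs). At a minimum mean of 10, retinal dehydrogenases had a median of -0.67 for GFP+ against GFP- HSCs, since Aldh1a7 then entered. The depth is unknown, so no counting error could be given for the MPP levels of Rarb and Cyp26b1. No paired analysis was possible because each population has 1 library.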

Other observations

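Over the 3 libraries, patterns were compared by the Euclidean distance between profiles of log2 (level + 5), each centred on its own mean; with 3 points such likeness is easily reached and is only a description. Among the genes nearest to Rarb were Jam2, a junction adhesion gene (distance 0.061; 1231 in GFP+ HSCs, 948 in GFP- HSCs and 5 in MPPs), and Cyp26b1 (0.15). Nearest to Cyp26b1 was Evc, a gene of the cilium base (0.054; 691, 428 and 0), and Rarb was also near. Only 4 genes lay within 0.2 of Rarb, and 4 of Cyp26b1. Aldh1a1 lay nearest to Cpne8 (0.19; 651, 587 and 11), Clu (0.20; 2240, 2068 and 49) and Ccdc136 (0.22; 326, 308 and 6), and 2 genes lay within 0.2 of it. Rdh10, with 82 genes within that distance, lay nearest to Sardh (0.028), Spag16 (0.030) and Cpxm1 (0.049; 1533, 1039 and 324). Dhrs3, with 15, lay nearest to Matn2 (0.075; 73, 89 and 441), Cpne5 (0.083; 16, 18 and 120) and Anxa2 (0.10; 595, 717 and 3280).

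Among protein-coding neighbours on the chromosome, Thrb, the next gene beyond Rarb at 576893 bases, stood at 400 in GFP+ HSCs, 347 in GFP- HSCs and 61 in MPPs, while Top2b on the other side was nearly level. Exoc6b, a gene of the exocyst 24577 bases from Cyp26b1, stood at 3802, 2949 and 1241. Rara lies between genes of dividing cells whose levels were highest in MPPs, Cdc6 at 779, 1474 and 2434 and Top2a at 5874, 9450 and 22601, with Gjd3, at 2, 1 and 2, between Rara and Top2a. Itgb7, an integrin gene 1532 bases from Rarg, went against it, at 669, 703 and 2570.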
